A study of Rattus norvegicus with 35 samples.

Results

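Genes of the cell cycle and of DNA replication were followed in the left ventricle of rats after the abdominal aorta had been ligated, from a list of 51 genes. They were all the listed genes present in the probe annotation of the array, 44 genes among 13337 with a probe, and the list was drawn up with earlier results of these data known. Before a cell divides, it copies its DNA in S phase. The Mcm helicase is loaded at replication origins, unwinds the helix and is followed by polymerases that the sliding clamp Pcna holds in place, while other enzymes supply nucleotides and join the new fragments. In mitosis, the kinase Cdk1 with its cyclins and a set of spindle proteins separate the chromosomes. Entry is gated in G1 by D-type cyclins with Cdk4 and by inhibitors such as Cdkn1a and Cdkn1b. Adult heart muscle cells rarely divide, whereas fibroblasts, endothelial cells and immune cells of the heart can, so that a ventricle holds several candidate cell types for these transcripts.

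RNA was measured on 35 Illumina BeadChip arrays of left ventricles from male Wistar rats, 1, 6 and 42 days after ligation of the abdominal aorta, a model of pressure overload, or after a sham operation. Ligated and sham groups held 6 arrays each per day, apart from ligated day 6 with 5. The labels do not say whether each array is 1 animal, so p-values measure the spread between these samples, and the animals' age was not given in the sources used here. All arrays of a day shared a BeadChip. Of 14 cardiomyocyte markers in the annotation, 14 were detected widely enough to be tested on each day. Between 32.8% and 40.3% of all probes were detected per array, meaning a detection p under 0.01 against the array's negative controls. Values are normalised log2 intensities, and effects are log2 fold changes, ligated over sham, with the limma standard error after the ± sign. P-values were adjusted over all probes tested. Array intensities do not compare levels between genes, and in bulk tissue fewer cells of a type and less RNA per cell cannot be told apart.

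The list was read in 3 roles. Replication had 18 of 20 listed genes on the array, mitosis 15 of 18 and the regulators of G1 and of Cdk activity 11 of 13. Not in the annotation were Rrm1 and Tk1 of replication, the mitosis markers Top2a, Mki67 and Birc5, and the regulators Ccnd3 and Cdk2. A gene was tested on a day if its probe was detected on at least 5 arrays of that day, which 22 genes did at day 1, 27 at day 6 and 23 at day 42. Over the 3 days 28 genes were tested at least once. Genes that were dim in sham ventricles could pass by detection wholly or mostly in ligated ones. This was so for 3 genes at day 1 and 3 at day 6, counted as detected on at least 4 ligated arrays and at most 1 sham array. Of the genes that rose, 1 of 8 at day 1 and 4 of 12 at day 6 were detected on at most 3 sham arrays. Values without this filter are therefore given as well.

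The promoters of 4 genes are shown because replication and mitosis genes differ as groups in how often they carry certain sequence elements near their starts. Each is the RefSeq promoter of build GRCr8, 250 bases before to 50 after the gene's start, written 5′ to 3′ on the gene's strand. Mcm6 and Mcm2 had the largest rises among the replication genes tested at day 1. Ccnb2 and Cdk1 had the largest among all members tested at day 6. Capitals mark 3 kinds of element on either strand. E2F-like elements were searched as TTCCCGC and its variants with the letters TTCGCGC, with the letters TTGCCGC and with the letters TTGGCGC. The CHR, an element of late cell cycle genes, was searched as TTTGAA, and the CCAAT box by its name's letters. Overlapping matches, such as E2F-like elements on both strands, form 1 run of capitals. Of these 4 promoters, that of Mcm6 has E2F-like elements and no CHR. Those of Mcm2, Ccnb2 and Cdk1 have both kinds, so they do not show the difference between the groups.
Mcm6 (chr13:42404303-42404602, minus strand): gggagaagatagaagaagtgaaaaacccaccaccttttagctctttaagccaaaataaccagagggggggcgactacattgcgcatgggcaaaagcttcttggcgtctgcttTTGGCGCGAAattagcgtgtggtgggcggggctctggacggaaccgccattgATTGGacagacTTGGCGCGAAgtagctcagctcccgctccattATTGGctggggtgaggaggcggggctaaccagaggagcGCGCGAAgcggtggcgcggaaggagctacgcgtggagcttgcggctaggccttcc
Mcm2 (chr4:122918045-122918344, minus strand): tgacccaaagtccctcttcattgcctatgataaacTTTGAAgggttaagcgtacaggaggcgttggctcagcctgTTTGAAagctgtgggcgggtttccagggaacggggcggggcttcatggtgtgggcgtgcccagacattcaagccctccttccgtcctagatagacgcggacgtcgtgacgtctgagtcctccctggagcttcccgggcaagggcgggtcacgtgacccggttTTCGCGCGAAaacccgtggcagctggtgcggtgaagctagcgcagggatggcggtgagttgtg
Ccnb2 (chr8:79981609-79981908, minus strand): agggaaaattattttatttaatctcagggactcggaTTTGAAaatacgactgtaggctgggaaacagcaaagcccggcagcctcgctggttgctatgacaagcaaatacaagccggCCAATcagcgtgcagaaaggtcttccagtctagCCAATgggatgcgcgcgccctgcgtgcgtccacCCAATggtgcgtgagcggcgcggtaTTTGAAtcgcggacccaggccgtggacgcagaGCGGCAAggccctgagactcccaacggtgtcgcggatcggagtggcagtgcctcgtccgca
Cdk1 (chr20:19265043-19265342, plus strand): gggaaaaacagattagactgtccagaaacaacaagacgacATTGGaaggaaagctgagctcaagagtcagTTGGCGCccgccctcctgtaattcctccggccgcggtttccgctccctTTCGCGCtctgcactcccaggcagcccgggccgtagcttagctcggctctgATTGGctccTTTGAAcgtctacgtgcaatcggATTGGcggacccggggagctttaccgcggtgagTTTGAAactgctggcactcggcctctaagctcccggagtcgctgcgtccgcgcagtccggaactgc
Across the list, 42 of the 51 genes matched a RefSeq promoter. E2F-like elements were present in 14 of 17 replication promoters (82.4%), 3 of 15 mitosis promoters (20%) and 3 of 10 regulator promoters (30%), against 10% of all 27457 promoters. The CHR was present in 1 of 17 replication promoters (5.88%), that of Mcm2, in 10 of 15 mitosis promoters (66.7%) and in 3 of 10 regulator promoters (30%), against 18.1% of all. CHR and CCAAT box together were in 0 of 17 replication promoters, 9 of 15 mitosis promoters (60%) and 3 of 10 regulator promoters (30%), against 7.25% of all. A CCAAT box, with or without a CHR, was common, in 9 of 17, 12 of 15 and 6 of 10 promoters of these roles and in 37.7% of all. Among the 10976 promoters of genes with a probe, 13.9% had an E2F-like element, 15.3% a CHR and 6.22% a CHR with a CCAAT box. These are matches of letters and show no binding.

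At day 1 replication genes were higher in ligated than in sham ventricles. Those that rose were the helicase subunits Mcm2, Mcm6 and Mcm7, the clamp loader subunits Rfc3 and Rfc4, and Fen1 and Lig1, which finish the lagging strand. Mcm3, Mcm5 and Rfc2 were too dim to be tested. Of 10 replication genes tested, 7 rose and 0 fell, with a median log2 fold change of 0.70. Of 5 mitosis genes 1 rose and 0 fell (3 at an unadjusted p under 0.05). Their median was 0.72, near that of the replication genes. Of 7 regulators 0 changed (median 0.37). Together 8 of 22 rose (limma, adjusted p under 0.05), where 12.9% of all 6218 genes tested rose and 16.2% fell. The median over all genes was -0.03. Without the detection filter 7 of the 44 genes rose, all of them replication genes, against 5.26% of all genes. Of the 8 above, 6 were among them, while Rfc3 and Aurkb lost their calls (adjusted p = 0.0628 and 0.094 in limma).

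Mcm6, a subunit of the replicative helicase, had the largest change among the replication genes tested at day 1. It read 10.17, 8.42, 10.33, 10.33, 9.10 and 8.57 on the ligated arrays, against 7.85, 7.66, 8.19, 7.78, 8.16 and 7.98 on the sham arrays. Every ligated array lay above every sham array, and 3 of them, replicates 1, 3 and 4, stood well above the other 3. The change was 1.55 ± 0.32, or 2.93-fold (adjusted p = 0.00455 in limma). Its partner Mcm2 read 7.09 to 8.73 (median 7.70) in ligated and 6.40 to 6.99 (median 6.78) in sham ventricles (1.06 ± 0.24, adjusted p = 0.0073 in limma), again without overlap. Mcm7, a further subunit, read 7.95 to 9.08 (median 8.68) in ligated and 7.87 to 8.06 (median 8.03) in sham ventricles (0.60 ± 0.17, adjusted p = 0.0179 in limma). Its lowest ligated array, replicate 2, lay inside the sham range. The subunit Mcm4, detected on 5 of 6 arrays after ligation and 0 of 6 after sham, was at least 1.23-fold higher. This bound comes from the lowest signal that counted as detected on each sham array, and Mcm4 did not pass (adjusted p = 0.0594 in limma).

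The clamp loader opens Pcna and closes it around DNA. Its subunit Rfc4 read 9.01 to 10.36 (median 9.56) in ligated and 8.67 to 8.89 (median 8.81) in sham ventricles (0.83 ± 0.19, adjusted p = 0.00804 in limma), without overlap. Rfc3 read 8.31 to 9.71 (median 9.01) in ligated and 8.01 to 8.37 (median 8.26) in sham ventricles (0.77 ± 0.23, adjusted p = 0.0239 in limma), with 2 ligated arrays inside the sham range. The call of Rfc3 was lost without ligated replicate 3 (adjusted p = 0.0556 in limma) or ligated replicate 4 (adjusted p = 0.0568 in limma). Pcna itself read 10.77 to 11.96 (median 11.33) in ligated and 10.67 to 11.04 (median 10.83) in sham ventricles. Its effect of 0.52 ± 0.21 did not pass (adjusted p = 0.0769 in limma), with ligated replicates 1, 3 and 4 above the sham range and the other 3 inside it.

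Fen1, the nuclease that trims RNA-primed flaps, read 8.44, 6.89, 8.60, 8.41, 7.43 and 7.31 on the ligated arrays, against 6.94, 6.88, 7.07, 6.73, 6.86 and 6.78 on the sham arrays. The same 3 ligated arrays were high, and replicate 2 was inside the sham range. Fen1 rose by 0.97 ± 0.26 (adjusted p = 0.0151 in limma). Lig1, the ligase that seals the trimmed fragments, read 7.57 to 8.47 (median 8.04) in ligated and 7.16 to 7.55 (median 7.51) in sham ventricles (0.59 ± 0.14, adjusted p = 0.00925 in limma), with no overlap. Tyms, which makes thymidylate, was at 0.62 ± 0.27 and did not pass (adjusted p = 0.0921 in limma). In all 4 of 22 tested genes, Mcm2, Mcm6, Rfc4 and Lig1, had groups that did not overlap, against 10.2% of all genes tested.

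Among mitosis genes the kinase Aurkb of the chromosomal passenger complex was the one that rose at day 1. It read 8.11, 5.50, 7.91, 6.74, 6.33 and 5.44 on the ligated arrays, against 5.12, 6.15, 5.37, 5.10, 5.38 and 5.04 on the sham arrays. Its probe was detected on 4 of 6 arrays after ligation and 1 of 6 after sham, so most sham values are near background. The effect was 1.31 ± 0.43 (adjusted p = 0.0336 in limma), and was lost without the detection filter (adjusted p = 0.094 in limma) and without each of 5 sham arrays in turn. Of 12 fits that left out 1 array, Aurkb met the detection filter in 7 and passed in 2. Cdk1, the kinase that drives mitosis, read 9.35, 6.53, 9.06, 7.93, 7.07 and 6.77 on the ligated arrays, against 6.61, 6.82, 6.73, 6.47, 6.17 and 6.83 on the sham arrays. It did not pass at 1.18 ± 0.43 (adjusted p = 0.0518 in limma), with ligated replicates 1, 3, 4 and 5 above the sham range and the other 2 inside it. Without ligated replicate 2, 5 or 6 it passed (adjusted p = 0.0155, 0.0404 and 0.0271 in limma). The mitotic cyclin Ccnb2 was at 0.36 ± 0.30 (adjusted p = 0.391 in limma). Cdc20, which activates the anaphase-promoting complex, was at 0.57 ± 0.23 and Prc1, which bundles spindle midzone microtubules, at 0.72 ± 0.34, and neither passed.

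None of the 7 regulators tested at day 1 passed in limma (3 at an unadjusted p under 0.05). The cyclin Ccnd1 read 9.78 to 10.72 (median 10.11) in ligated and 9.58 to 10.07 (median 9.83) in sham ventricles (0.37 ± 0.15, adjusted p = 0.0708 in limma). Cks2, a small subunit of Cdk complexes, was at 1.13 ± 0.46 and the phosphatase Cdkn3 at 0.61 ± 0.24. The inhibitor Cdkn1a was at 0.41 ± 0.22 and the inhibitor Cdkn1b at -0.05 ± 0.17. Cdkn1b was above 0 under median scaling (0.21) and without ligated replicate 4 or 6 or sham replicate 2.

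The detection calls, which use no scaling between arrays, showed the same spread among ligated ventricles at day 1. Of the 44 genes, 39, 21, 37, 33, 25 and 19 were detected on ligated replicates 1 to 6, against 17 to 21 on the sham arrays. The share of all probes detected also varied, at 40.3%, 36.4%, 37.4%, 37.4%, 35.6% and 34.1% on these ligated arrays. On the sham arrays it was 33.7% to 36.0%. Replication genes reached 17, 16 and 16 of 18 on ligated replicates 1, 3 and 4, while each sham array had 9. Mitosis genes reached 13, 13 and 10 of 15 on these 3 arrays, against 3 to 6 on sham arrays. In all 22 genes were detected on more ligated than sham arrays and 0 on fewer, a count not made over all genes. Among genes too dim to be tested, the dNTP-making enzyme subunit Rrm2 was at least 1.75-fold higher (4 of 6 ligated, 0 of 6 sham arrays), the spindle motor Kif11 at least 1.52-fold (4 of 6, 0 of 6) and the S and G2 phase cyclin Ccna2 at least 1.19-fold (3 of 6, 0 of 6).

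**Figure D1:**
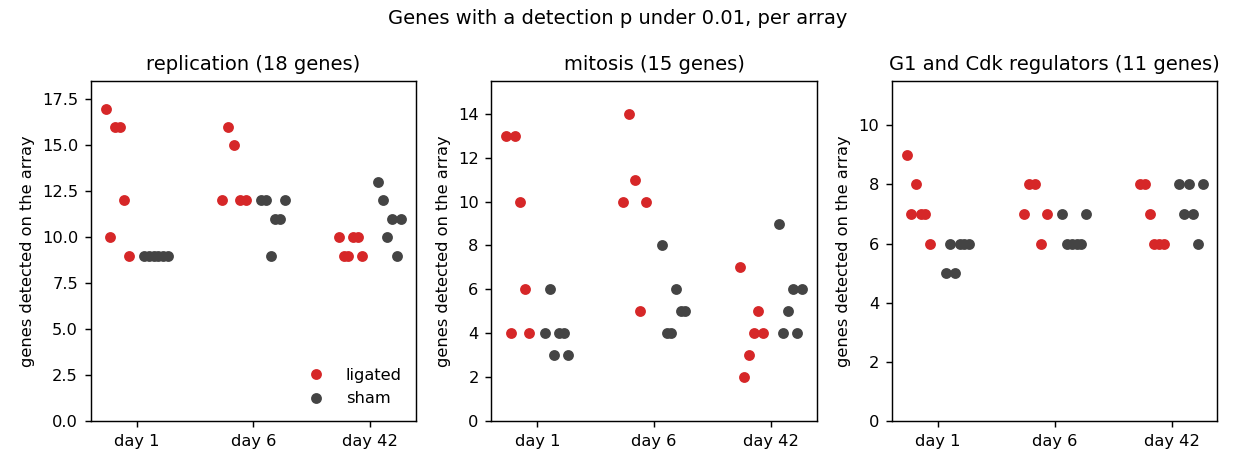
Number of genes with a detection p under 0.01 on each array, for replication (left), mitosis (middle) and G1 and Cdk regulators (right), with a point per array, ligated in red left of sham in dark grey for each day. On day 1, 3 ligated arrays have 16 or 17 replication genes detected and every sham array has 9, and on day 42 no ligated array exceeds 10.

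Those 3 ligated arrays were also the brightest of the day. The 75th percentile of the scanner intensity was 308, 266 and 293 units on ligated replicates 1, 3 and 4 and 208 to 225 on the other 3, against 199 to 240 on the sham arrays. With this brightness as a covariate 3 of 22 genes rose (Mcm6, Rfc4 and Lig1), against 6.56% of all genes, and Mcm2, Mcm7, Rfc3, Fen1 and Aurkb lost their calls. On this day's BeadChip the first positions, A to F, held ligated samples and the last, G to L, held sham samples, and position and operation cannot be told apart. Median scaling in place of quantile normalisation moved the median over all genes to 0.20 and raised the share of all calls that were upward to 83.1%, against 44.3% with quantile normalisation. With it 10 members rose and 0 fell, where 20.8% of all genes rose and 4.25% fell. Without ligated replicate 2 the count of risen genes was 13 and without ligated replicate 6 it was 15, each with the same 8 among them. Macrophage markers were also higher in part, with 4 up and 1 down of 12 tested and summed levels (linear normalised intensity) of 9338 to 23650 in ligated and 6174 to 12165 in sham ventricles. Adgre1 of that list was detected on no array. Of 13 fibroblast markers 2 rose and 2 fell (summed levels 55282 to 89199 in ligated, 54783 to 66944 in sham). Of 6 smooth muscle and pericyte markers 3 rose and 0 fell (summed levels 36060 to 43758 in ligated, 33048 to 36171 in sham). Of 4 Schwann and nerve markers 2 rose and 0 fell (750 to 995 in ligated, 525 to 636 in sham). The part of array brightness and of these cells in the result was not tested beyond these values.

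Other genes of the same pathways, outside the 51, moved at day 1 as well. Of 20 other replication genes tested, 10 rose and 2 fell, with a median of 0.40. The maintenance methyltransferase Dnmt1 rose by 0.79 ± 0.17 and the histone chaperone Nasp by 0.71 ± 0.16, and the origin protein Orc4 rose by 0.37 ± 0.09. Pola2, the B subunit of polymerase alpha, fell (-0.74 ± 0.17, adjusted p = 0.00633 in limma). Of 14 other mitosis genes 5 rose and 1 fell. They included the replication licensing inhibitor Gmnn (1.64 ± 0.37), which is high from S phase to mitosis, the chromatin protein Hmgb2 (0.70 ± 0.21), the chromosome motor Kif22 (0.75 ± 0.24) and, as the one that fell, the phosphatase Cdc25b (-0.35 ± 0.10). Of 22 other regulators 5 rose and 3 fell. The transcription factor Myc rose by 1.85 ± 0.29 and the stress-induced growth arrest gene Gadd45g by 0.96 ± 0.25, while the pocket protein Rbl2 (-0.76 ± 0.10, adjusted p = 0.00055 in limma) and the transcription elongation inhibitor Hexim1 (-0.46 ± 0.12) fell.

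At day 6 mitosis genes were higher in ligated ventricles, with the cyclin B and Cdk1 machinery, the anaphase-promoting complex and the spindle midzone represented. Of 8 mitosis genes tested 6 rose and 0 fell, with a median log2 fold change of 1.66. Of 12 replication genes 4 rose and 0 fell (median 0.50), and of 7 regulators 2 rose and 1 fell (median 0.11). Together 12 of 27 rose and 1 fell, where 5.89% of all 6403 genes tested rose and 5.79% fell (limma, adjusted p under 0.05). The median over all genes was -0.04. Without the detection filter 6 of the 44 genes rose and 1 fell, against 1.76% and 1.65% of all genes. Of those 6 genes 4 were mitosis genes.

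Ccnb2, a B-type cyclin, had the largest change among the genes tested. It read 8.58, 10.96, 9.52, 8.07 and 9.02 on the 5 ligated arrays, against 6.64 to 7.62 (median 7.04) on the sham arrays. No ligated array overlapped the sham range, replicate 2 was the highest and replicate 4 the lowest. The change of 2.13 ± 0.40 is 4.38-fold (adjusted p = 0.0074 in limma), and Ccnb2 passed in 26 of 26 alternatives. Its kinase Cdk1 read 8.45, 10.60, 9.33, 7.11 and 8.37 on the ligated arrays, against 6.39 to 7.28 (median 6.56) on the sham arrays. Ligated replicate 4 was inside the sham range and the other 4 were above it. Cdk1 rose 4.14-fold (2.05 ± 0.46, adjusted p = 0.0161 in limma).

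The anaphase-promoting complex marks cyclin B for destruction. Its activator Cdc20 read 7.03, 9.02, 7.90, 7.04 and 7.65 on the ligated arrays, against 6.14 to 6.57 (median 6.51) on the sham arrays. Cdc20 rose by 1.28 ± 0.29 (adjusted p = 0.017 in limma), with no overlap. The complex's ubiquitin-conjugating enzyme Ube2c read 7.28, 8.57, 7.95, 6.20 and 7.19 on the ligated arrays, against 5.29 to 6.18 (median 5.54) on the sham arrays. Detection was 5 of 5 in ligated and 2 of 6 in sham ventricles. The groups did not overlap, although ligated replicate 4 was only just above the highest sham array. Its effect was 1.78 ± 0.34 (adjusted p = 0.00816 in limma).

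Of the spindle and cytokinesis genes, Prc1 read 8.45, 10.16, 9.28, 7.12 and 8.04 on the ligated arrays, against 6.40 to 7.18 (median 6.84) on the sham arrays (1.78 ± 0.41, adjusted p = 0.0174 in limma). As for Cdk1, ligated replicate 4 was within the sham range. Aurkb read 7.0, 8.60, 7.28, 5.25 and 7.12 on the ligated arrays, against 4.94 to 5.91 (median 5.52) on the sham arrays, and was detected on 4 of 5 and 1 of 6, with ligated replicate 4 again inside the sham range. Its effect of 1.54 ± 0.43 (adjusted p = 0.0365 in limma) passed in 9 of the 20 alternatives in which it met the detection filter, out of 26. Without the detection filter Aurkb (adjusted p = 0.099 in limma) and Prc1 (adjusted p = 0.0536 in limma) did not pass. The kinesins Kif11 at 1.53 ± 0.48 (adjusted p = 0.0567 in limma) and Kif20a at 1.16 ± 0.39 (adjusted p = 0.0689 in limma) did not pass. Ccna2, too dim to be tested, was at least 1.95-fold higher (4 of 5 ligated, 0 of 6 sham arrays).

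The regulators Cks2 and Cdkn3, both binding partners of Cdks, rose with the mitosis genes. Cks2 read 8.82, 10.47, 8.74, 7.99 and 8.37 on the ligated arrays, against 6.72 to 7.74 (median 7.43) on the sham arrays (1.56 ± 0.36, adjusted p = 0.0178 in limma), without overlap. Cdkn3 read 7.42, 9.05, 7.76, 6.03 and 6.52 on the ligated arrays, against 5.22 to 6.13 (median 5.50) on the sham arrays, and was detected on 4 of 5 and 1 of 6 (1.79 ± 0.42, adjusted p = 0.0199 in limma). Here ligated replicate 4 was inside the sham range. Without the detection filter neither passed (adjusted p = 0.0536 for Cks2 and 0.0586 for Cdkn3 in limma), and Cdkn3 had met the filter mostly through ligated arrays. Both have a CHR and a CCAAT box in their promoter windows. So does Cks1b, a paralog of Cks2, which was at 0.11 ± 0.12 at day 6 and did not pass (adjusted p = 0.587 in limma).

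Cdkn1b, the Cdk inhibitor p27, was the member that fell at day 6. It read 7.72, 7.66, 7.66, 7.64 and 7.83 on the ligated arrays, against 8.30, 8.21, 8.36, 8.38, 8.20 and 8.30 on the sham arrays. All 5 ligated arrays lay close together and below every sham array. The effect was -0.59 ± 0.10, that is 1.5-fold lower in ligated ventricles (adjusted p = 0.00362 in limma). Ccnd1 at -0.16 ± 0.22 (adjusted p = 0.654 in limma) and Cdkn1a at -0.23 ± 0.33 (adjusted p = 0.675 in limma) did not pass, and Cdkn1a was above 0 among positions G to L alone.

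Replication genes were higher again at day 6, but fewer passed. Mcm6 read 8.98, 10.56, 9.42, 8.91 and 9.36 on the ligated arrays, against 8.23 to 8.53 (median 8.37) on the sham arrays (1.08 ± 0.24, adjusted p = 0.0154 in limma). Fen1 read 7.45, 8.44, 7.48, 7.79 and 7.60 on the ligated arrays, against 6.66 to 7.21 (median 6.96) on the sham arrays (0.79 ± 0.18, adjusted p = 0.016 in limma). Neither gene overlapped between the groups. Lig1 read 7.88, 8.75, 8.56, 8.28 and 7.81 on the ligated arrays, against 7.42 to 7.78 (median 7.63) on the sham arrays, likewise without overlap (0.64 ± 0.17, adjusted p = 0.0305 in limma). It passed in 5 of the 11 fits that left out 1 array. Rrm2, the subunit of ribonucleotide reductase that rises in S phase, read 7.69, 9.14, 7.92, 5.37 and 7.41 on the ligated arrays, against 5.39 to 6.35 (median 5.56) on the sham arrays. Its ligated replicate 4 was below every sham array, and the effect of 1.78 ± 0.48 (adjusted p = 0.0338 in limma) passed in 2 of those 11 fits. Without the detection filter Lig1 (adjusted p = 0.0619 in limma) and Rrm2 (adjusted p = 0.0919 in limma) did not pass. Mcm2 was at 0.71 ± 0.22 (adjusted p = 0.0541 in limma) and Pcna at 0.20 ± 0.19 (adjusted p = 0.504 in limma), and Pcna was below 0 with array weights and among positions G to L. In all 8 of 27 tested genes had groups that did not overlap, against 8.68% of all genes.

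**Figure D2:**
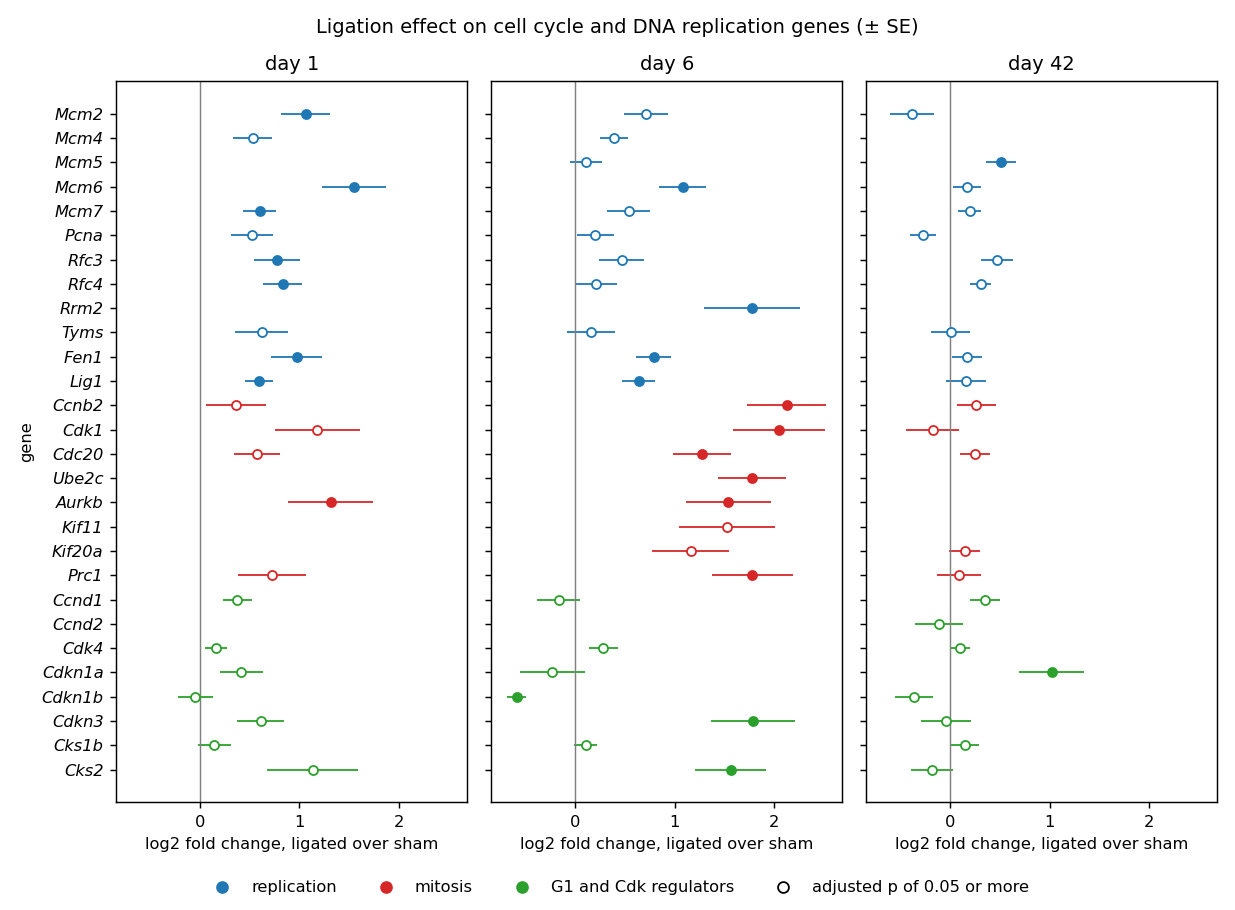
Log2 fold change of ligated over sham ± SE for each gene tested on days 1, 6 and 42, with replication genes in blue, mitosis genes in red and G1 and Cdk regulators in green. Filled points have an adjusted p under 0.05. At day 1 the filled points are 7 replication genes and Aurkb, at day 6 they include 6 mitosis genes, and at day 42 they are Mcm5 and Cdkn1a.

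The ligated ventricles of day 6 differed among themselves. Ligated replicate 2 was the highest ligated array for 22 of the 27 genes tested, and replicate 4 the lowest for 14. The median log2 difference of mitosis genes from the sham mean was 1.48, 3.17, 2.23, 0.34 and 1.37 on ligated replicates 1 to 5, against -0.39 to 0.40 on sham arrays. For replication genes it was 0.25, 1.27, 0.54, 0.26 and 0.30, against -0.04 to 0.12. Detected members numbered 29, 38, 34, 23 and 29 of 44 on ligated replicates 1 to 5, against 19 to 27 on sham arrays. Of all probes, 35.2% to 40.2% were detected on ligated arrays and 34.9% to 38.9% on sham arrays. Without replicate 2 or without replicate 3, 9 genes of the 24 then tested were changed, and each of the 9 was among the 13.

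**Figure D3:**
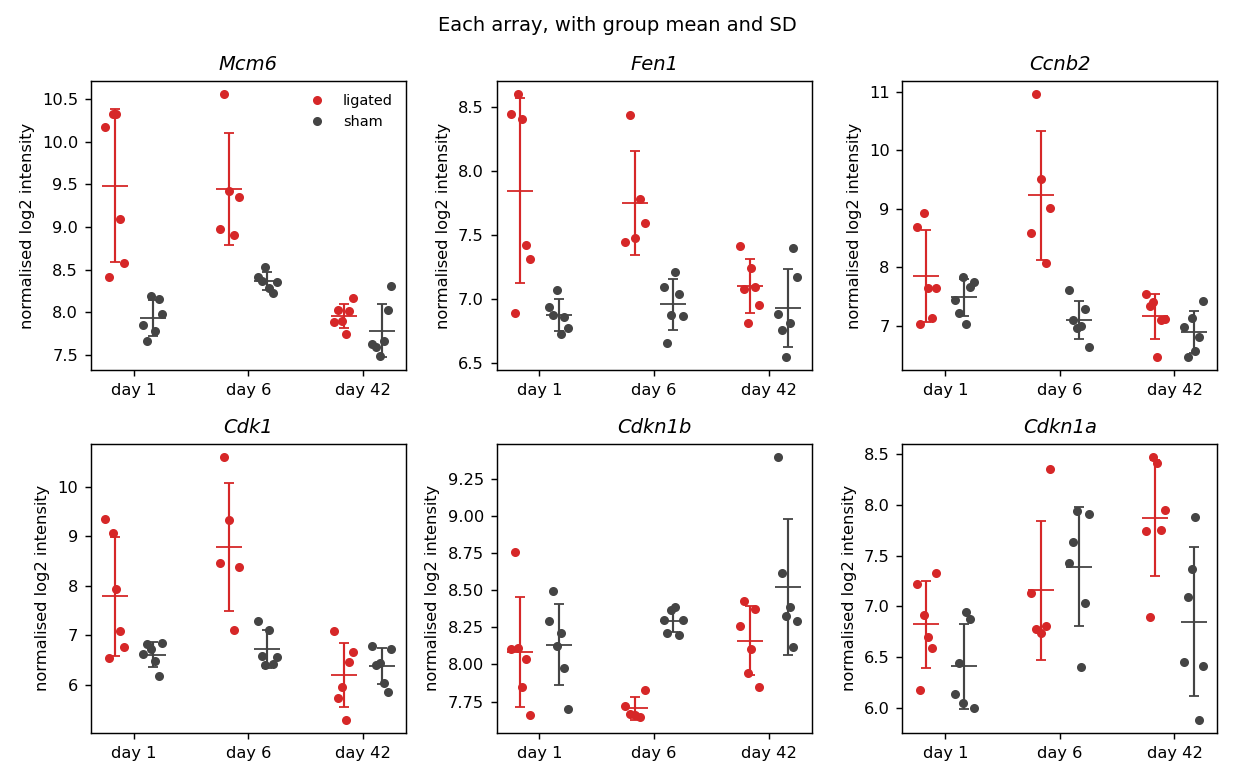
Normalised log2 intensity of Mcm6, Fen1, Ccnb2, Cdk1, Cdkn1b and Cdkn1a on each array, ligated in red left of sham in dark grey for each day, with the group mean and SD. Ccnb2 at day 6 is above the sham range on all 5 ligated arrays, and Cdkn1b is below it on all 5.

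Macrophage markers were higher in the ligated group too. Of 12 tested, 9 rose and 0 fell, and their summed level was 31470, 53582, 12154, 17261 and 24687 on ligated replicates 1 to 5, against 8932 to 11391 on sham arrays. Replicate 2 was highest for these markers as for the mitosis genes, while replicate 3 was second for mitosis genes and lowest for the markers. For Adgre1 of this list, 2 of 5 ligated arrays and 3 of 6 sham arrays had a detected signal. Of 13 fibroblast markers 4 rose and 0 fell (summed levels 70702 to 126297 in ligated, 59054 to 78474 in sham), and of 8 endothelial markers 0 passed in limma, with 2 at an unadjusted p under 0.05 (summed levels 9181 to 10520 in ligated, 10182 to 11417 in sham). Of 6 smooth muscle and pericyte markers 3 rose and 1 fell (45511 to 53723 in ligated, 33054 to 39805 in sham). B cell markers were too dim to be tested. The part of these cells in the result was not tested.

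**Figure D4:**
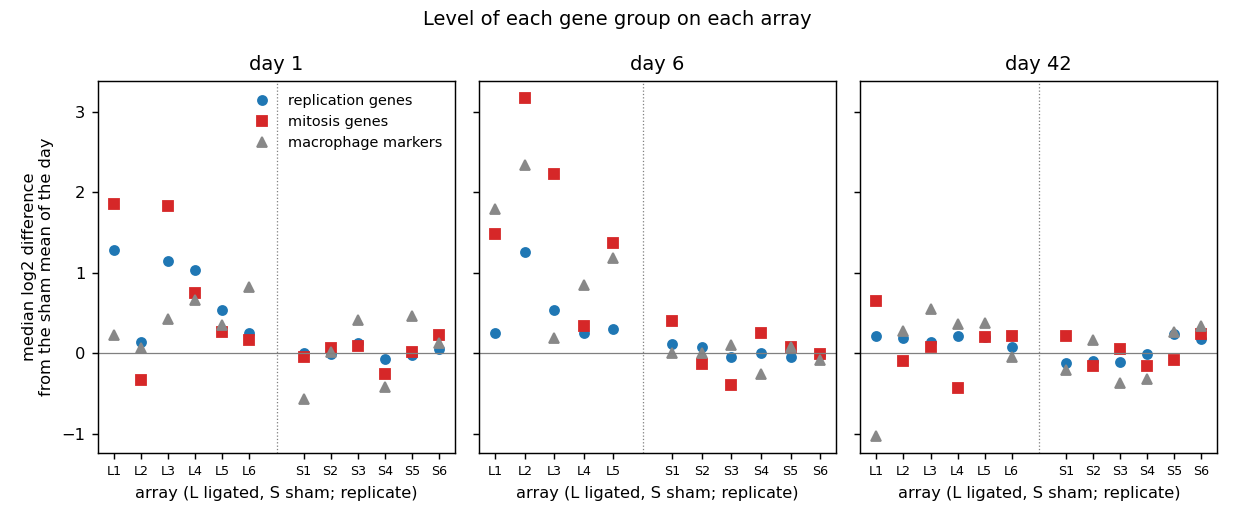
Median log2 difference from the sham mean of the day for replication genes (blue circles), mitosis genes (red squares) and macrophage markers (grey triangles) on each array, ligated replicates (L) left of sham replicates (S). At day 6 ligated replicate 2 is the highest for all 3 sets, and replicate 3 has mitosis genes at 2.23 with macrophage markers at 0.19.

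Both operations lay in both sets of BeadChip positions at day 6. Among positions A to F (2 ligated, 3 sham arrays) 10 members rose and 0 fell, against 4.20% and 3.72% of all genes, and the median of mitosis genes was 2.47. Among positions G to L (3 ligated, 3 sham) 4 rose and 1 fell, against 2.76% and 3.08% of all genes, and that median was 1.14. The brightest ligated arrays were replicates 1 and 2, with 75th percentiles of 375 and 365 units, and the other 3 lay between 185 and 262 units, against 228 to 320 on sham arrays. With this brightness as a covariate 15 rose and 1 fell, against 8.31% and 8.95% of all genes. Median scaling left 2 calls, Ccnb2 and Ube2c, where 0.734% of all genes rose. The median effect of mitosis genes was 1.65 under it.

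Of the other replication genes 2 of 21 rose and 0 fell at day 6, the uracil-DNA glycosylase Ung (0.69 ± 0.16) and the polymerase epsilon subunit Pole2 (1.10 ± 0.32, with 5 of 5 ligated arrays detected against 2 of 6 sham). Of 15 other mitosis genes 7 rose and 0 fell, with a median of 0.76. They included the kinetochore protein Ndc80 (1.16 ± 0.27, with 4 of 5 ligated arrays detected against 1 of 6 sham), the spindle assembly factor Tpx2 (1.58 ± 0.37), the motor Kif22 (1.22 ± 0.29) and the condensin subunit Smc2 (0.95 ± 0.24). Of 24 other regulators 0 passed in limma (4 at an unadjusted p under 0.05).

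At day 42 most members differed little between ligated and sham ventricles. Of 23 tested 2 rose and 0 fell, where 6.82% of all 6229 genes rose and 7.82% fell (limma, adjusted p under 0.05), so the share of risen members, 8.70%, was near that of all genes. The medians were 0.17 for 10 replication genes, 0.15 for 5 mitosis genes and 0.02 for 8 regulators, against -0.01 for all genes. No member had groups without overlap, against 6.08% of all genes.

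Cdkn1a, the Cdk inhibitor p21, read 7.74, 6.89, 8.47, 8.41, 7.75 and 7.95 on the ligated arrays, against 6.45, 7.10, 7.37, 7.88, 5.88 and 6.41 on the sham arrays. The groups overlapped, with 5 of 6 ligated arrays above 5 of 6 sham arrays. The effect was 1.02 ± 0.33, or 2.03-fold (adjusted p = 0.0491 in limma), and passed in 7 of 23 alternatives. The helicase subunit Mcm5 read 5.86 to 6.81 (median 6.52) in ligated and 5.82 to 6.09 (median 5.94) in sham ventricles (0.51 ± 0.15, adjusted p = 0.034 in limma). It was detected on 5 of 6 arrays of each group, passed in 10 of 23 alternatives, and its second probe was detected on no array. Under median scaling neither passed, with Cdkn1a at 0.52 and Mcm5 at 0.15. Without a detection filter the effects were the same and neither passed. With brightness as a covariate Cdkn1a was at 1.29 ± 0.58 (adjusted p = 0.454 in limma) and Mcm5 at 0.03 ± 0.20 (adjusted p = 0.982 in limma). Only 0.0321% of all 6229 genes passed with this covariate. Without a detection filter 0 of 44 members passed in limma (8 at an unadjusted p under 0.05).

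Of 5 mitosis genes 0 passed at day 42 in limma (0 at an unadjusted p under 0.05), and their ligated and sham ranges overlapped. Cdk1 read 5.29 to 7.08 (median 6.20) in ligated and 5.85 to 6.78 (median 6.41) in sham ventricles (-0.18 ± 0.27) and Ccnb2 read 6.46 to 7.54 (median 7.23) in ligated and 6.47 to 7.43 (median 6.89) in sham ventricles (0.26 ± 0.19). Cdk1 was above 0 with brightness as a covariate and Ccnb2 below 0 under median scaling. Pcna was at -0.28 ± 0.13 (adjusted p = 0.151 in limma) and Ccnd1 at 0.35 ± 0.15 (adjusted p = 0.122 in limma), Ccnd1 below 0 under median scaling. Median scaling moved the median of all genes to -0.47, and 1.57% of its calls were upward. Under it 5 members of 23 fell and 0 rose, where 56.4% of all genes fell.

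Detection ran the other way on this day. The ligated arrays detected 19 to 25 of the 44 genes, against 19 to 30 on sham arrays, with 1 gene on more ligated arrays and 14 on more sham arrays. The share of all probes detected was lower too, at 32.8% to 36.8% on ligated arrays and 35.9% to 39.7% on sham arrays. On this day 13 of the genes were detected on no array, against 5 at day 1 and 4 at day 6, and Gins2, Ccnb1 and Ccne1 were detected on none of the 35 arrays. Gins2 belongs to the helicase complex, Ccnb1 is the main mitotic B-type cyclin and Ccne1 the cyclin of the G1 to S transition. The 75th percentile of scanner intensity was 161 to 273 units on ligated and 259 to 348 units on sham arrays. As at day 1, BeadChip position and operation cannot be told apart. Macrophage markers gave 0 calls of 10 tested in limma (2 at an unadjusted p under 0.05), with summed levels of 3514 to 8256 in ligated and 5312 to 8425 in sham ventricles.

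Other pathway genes at day 42 were Pola2 (-0.67 ± 0.12, adjusted p = 0.00373 in limma), the single-strand binding subunit Rpa3 (-0.52 ± 0.14) and the origin protein Orc2 (-0.75 ± 0.20, with 0 of 6 ligated arrays detected against 5 of 6 sham and at least 1.01-fold lower), which fell, and the large clamp loader subunit Rfc1, which rose (0.35 ± 0.11). That was 1 up and 3 down of 20 other replication genes. Of 11 other mitosis genes 0 passed in limma (3 at an unadjusted p under 0.05). Of 23 other regulators 0 rose and 2 fell. Those were the Mediator cyclin Ccnc (-0.94 ± 0.24) and Ccnh, the cyclin of the Cdk-activating kinase (-0.37 ± 0.12).

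The ligation effect itself was compared between days in 1 fit of all 6 groups, with sham ventricles of each day as its own baseline. Between day 6 and day 1 it differed for 0 of 27 members in limma (7 at an unadjusted p under 0.05), against 0.275% of all 6539 genes higher and 0.382% lower at day 6. So no single gene passed, although the median difference of mitosis genes was 0.79 and that of replication genes -0.24. Ccnb2 had the smallest p, with a difference of 1.77 ± 0.47 (adjusted p = 0.0626 in limma), followed by Ube2c at 1.22 ± 0.42 (adjusted p = 0.177 in limma). Rfc4 was at -0.62 ± 0.26 (adjusted p = 0.293 in limma). Across the days, 4 genes rose at both day 1 and day 6, namely Mcm6, Fen1, Lig1 and Aurkb. They are 50% of the 8 risen at day 1 and 33.3% of the 12 risen at day 6, an overlap not counted over all genes. Aurkb met the detection filter on both days mostly through ligated arrays and passed on neither day without it, and Lig1 did not pass without it at day 6.

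At day 42 the effect was lower than at day 6 for 9 of 28 members, against 3.72% of all 6605 genes lower and 3.41% higher. Of the 9, 5 were mitosis genes. Cdk1 differed by -2.23 ± 0.61, Ccnb2 by -1.87 ± 0.47, Ube2c by -1.85 ± 0.42, Aurkb by -1.79 ± 0.56 and Prc1 by -1.70 ± 0.51. Ube2c kept its call in 33 of 33 alternatives (adjusted p = 0.00826 in limma), Ccnb2 in 33 of 34 and Cdkn3, at -1.83 ± 0.48, in 32 of 33. The remaining 3 were Rrm2 (-2.17 ± 0.67), Cks2 (-1.75 ± 0.56) and Mcm2 (-1.10 ± 0.35). Cdk1 passed in 30 of 34 alternatives, Prc1 in 17 of 34 and Rrm2 in 12 of 33. Mcm2 passed in 10 of 34, Aurkb in 7 of 28 and Cks2 in 5 of 34. Aurkb, Ube2c and Rrm2 did not meet the detection filter at day 42. Without ligated replicate 2 of day 6 the count was 3 of 27. Without the detection filter it was 3 of 44 (Ccnb2, Cdkn3 and Ube2c), against 1.22% of all genes lower. With brightness as a covariate it was 1 of 28 (Ube2c), against 1.27% of all genes lower.

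From day 1 to day 42 the effect was lower for 3 of 25 members, against 4.34% of all 6525 genes lower and 4.64% higher, and all 3 were replication genes. Mcm2 differed by -1.45 ± 0.34 (adjusted p = 0.0167 in limma) and Mcm6 by -1.38 ± 0.37 (adjusted p = 0.0249 in limma). Pcna differed by -0.80 ± 0.26 (adjusted p = 0.049 in limma), kept in 14 of 35 alternatives. Without ligated replicate 1, 3 or 4 of day 1 only Mcm2 passed. The count was 5 without ligated replicate 2 of day 1 and 7 without its replicate 6. Array brightness differed with operation on day 42. With brightness as a covariate 0 of all 6525 genes passed in limma, and so 0 members (1 at an unadjusted p under 0.05).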

How the data were processed

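Left ventricle RNA was hybridised to 35 arrays, 5 or 6 per group. The authors deposited per day the scanner intensity of each probe with its detection p-value, not normalised. BeadStudio 3.3 and GenomeStudio are named per the submitters' processing notes. The authors' separate table of processed intensity values, with day medians of 15.7, 25.5 and 21.4, ranked probes as the scanner values did, and its scaling and centring stay unknown. The 4 columns of 1 array that matched no sample label were not used.

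Background was removed by normexp, with negative controls inferred through detection p-values and an offset of 16. Values were then quantile-normalised day by day and put on a log2 scale in limma 3.58.1 (R 4.3.3). Of 22523 probes, 13793 had 1 gene symbol, 8730 had none and 0 had several. The brightest probe stood for a gene. Mcm5 and Kif11 had a second probe, detected on 0 arrays. Probes with a detection p under 0.01 on at least 5 arrays of the day were tested with lmFit and eBayes, adjusted by Benjamini-Hochberg across every tested probe, at 0.05. Day differences came from 1 fit of 6 group means over 35 arrays. The code was tested on simulated data. Alternatives changed the background correction, normalisation, source table, detection filter, shared spread, eBayes options, array weights, replicate block, brightness covariate, probe rule, BeadChip position and arrays left out. Counts of alternatives for a gene leave out those in which it did not meet the detection filter. The number of arrays and the signal over background limit precision.

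The members and lists were chosen with earlier results of these data known. Named with values were members that passed on a day, Pcna, Cdk1, Ccnd1 and Cdkn1a at any p, and up to 4 genes with the smallest p among those that passed per other list and day. Other genes named as not passing were added to complete a role after their values were seen.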

Additional observations from a re-analysis of the deposited data

Results flagged for a closer look

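Single arrays stood apart within their group for 4 of 114 groups of values tested (3.51%), where chance gives about 1 in 20. Cdkn1a on ligated replicate 5 of day 6 was at 8.35, above the next array at 7.13. Mcm7 on sham replicate 3 of day 1 was at 7.87, below the next at 7.99, and Aurkb on sham replicate 2 of day 1 was at 6.15, above the next at 5.38. Cdc20 on sham replicate 3 of day 6 was at 6.14, below the next at 6.46.

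The ligation effect differed between days, by a test of the difference itself in limma, for 12 pairs of gene and days. From day 6 to day 42 the difference was -1.10 for Mcm2, -2.23 for Cdk1, -1.79 for Aurkb, -1.70 for Prc1, -1.87 for Ccnb2, -1.83 for Cdkn3, -1.75 for Cks2, -1.85 for Ube2c and -2.17 for Rrm2. From day 1 to day 42 it was -1.38 for Mcm6, -1.45 for Mcm2 and -0.80 for Pcna. Each day is 1 BeadChip, and day and BeadChip cannot be told apart.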

How the results depend on the processing

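Of 958 checks of the 35 called gene results, 707 kept direction and call, 251 lost the call and 0 reversed. The main counts of changed genes were 8, 13 and 2 on days 1, 6 and 42, and 3, 9 and 0 for day 42 against day 1, day 42 against day 6 and day 6 against day 1. With array weights they were 16 at day 1, 4 at day 42, 11 for day 42 against 1, 4 for day 42 against 6 and 3 for day 6 against 1. The shares of all genes called with array weights, in that order, were 42.4%, 24.3%, 28.8%, 4.27% and 11.1%. In the main fit these shares were 29.1%, 14.6%, 8.98%, 7.13% and 0.658%. With the brightness covariate the member counts were 3 at day 1, 0 at day 42 (1 at an unadjusted p under 0.05), 0 for day 42 against 1 (1 unadjusted) and 1 for day 42 against 6. The shares of all genes called with this covariate, in that order, were 14.5%, 0.0321%, 0% and 1.88%. Median scaling gave 2 changed members at day 6, 5 of 23 at day 42, all lower, where 56.4% of all genes were lower, and 16 of 25 for day 42 against 1, all lower, where 53.9% of all genes were lower. Without a detection filter the member counts were 7 at day 6, 0 at day 42 (8 unadjusted) and 3 for day 42 against 6. Of all genes 3.41%, 5.97% and 2.44% were then called. Detection on every array gave 0 at day 42 (4 unadjusted) and 5 for day 42 against 6, with 16.2% and 7.78% of all genes called. Normalising all 35 arrays together and the authors' processed values each gave 1 at day 42, with 14.5% and 13.2% of all genes called. Positions G to L alone gave 5 at day 6, with 5.84% of all genes called. Leaving out 1 array at a time gave 6 to 15 at day 1, 9 to 16 at day 6, 0 to 3 at day 42, 1 to 7 for day 42 against 1, 3 to 12 for day 42 against 6 and 0 to 1 for day 6 against 1. The lowest count for day 42 against 6 came without ligated replicate 2 of day 6. The cause of these changes was not tested.

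Same-numbered ligated and sham samples correlated above 0.1 in 1 of 6, 1 of 5 and 2 of 6 pairs on days 1, 6 and 42. On these days 2, 1 and 2 samples correlated best with their own number. So few pairs cannot show whether replicate numbers pair the samples. The replicate block gave 10, 3 and 2 changed members on days 1, 6 and 42. Of all genes 25.8%, 3.998% and 13.98% were then called, against 29.1%, 11.7% and 14.6% in the main fit. For the day differences, in the order above, the replicate block gave 3, 3 and 0 members. The shares of all genes called were 6.62%, 3.95% and 0.306%, against 8.98%, 7.13% and 0.658% in the main fit.

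Reversals concerned genes that had not passed. Under median scaling at day 42 these were Ccnb2 (-0.19), Ccnd1 (-0.15), Cdc20 (-0.15), Fen1 (-0.28), Lig1 (-0.33), Mcm6 (-0.34), Mcm7 (-0.31), Prc1 (-0.34), Rfc3 (-0.057) and Rfc4 (-0.21), and at day 1 Cdkn1b (0.21). The brightness covariate at day 42 reversed Cdk1 (0.25), Cdkn3 (0.19) and Cks2 (0.27). At day 6 Cdkn1a (0.18) and Pcna (-0.14) reversed in positions G to L, Mcm5 (-0.15) in A to F and Pcna (-0.017) with array weights. With 1 array left out, the value ran from -0.18 to 0.037 for Cdkn1b at day 1, from -0.14 to 0.070 for Cdkn3, from -0.35 to 0.0029 for Cdk1 and from -0.053 to 0.25 for Prc1 at day 42, and from -0.0031 to 0.34 for Rfc4 at day 6.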

Other observations

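Markers of other cells were measured as well. T and NK cell markers had 0 up and 1 down of 4 tested at day 1, 0 up and 1 down of 5 at day 6 and 0 up and 2 down of 4 at day 42. Smooth muscle and pericyte markers had 1 up and 0 down of 6 at day 42. Schwann and nerve markers had 0 of 4 past the threshold at day 6 in limma (1 at an unadjusted p under 0.05) and 0 of 3 at day 42 (1 unadjusted). Erythroid markers had 0 up and 2 down of 4 at day 1, and mast cell markers 0 up and 1 down of 3 at day 6. Endothelial markers had 1 up and 1 down of 9 at day 1 and 0 up and 1 down of 9 at day 42. The single neutrophil marker tested did not pass on any day in limma.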
